A study of Homo sapiens with 15 samples.

Results

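DNA damage signalling and repair was followed through 33 genes in ribosome profiling libraries of human HEK293 cells, an established line derived from embryonic kidney. The genes are a fixed list of damage kinases, repair nucleases, recombination factors and ligases, found by name in a table of 55773 gene names. All 33 were present, and all 33 passed the filter on low values in every comparison. Ribosome profiling sequences the short mRNA fragments that ribosomes shield from nuclease, here RNase I in the Flag/HA lines, so that reads per gene count ribosomes on its mRNA. The 15 libraries form 5 groups of 3. In 3 groups doxycycline-inducible HEK293 lines carry the Flag/HA tag alone (the control), Flag/HA-ZC3H7A or Flag/HA-ZC3H7B, all given doxycycline at 1 µg/mL for 24 h. ZC3H7A and ZC3H7B are related zinc finger proteins that bind RNA, and the series title names codons as the route by which they act on translation and mRNA stability. The other groups are Parental, of genotype Wild-type-shCTR with a control hairpin, and ZC3H7A/B-DD, of genotype ZC3H7A-KO-shZC3H7B, a double depletion by knockout of the first gene and a hairpin against the second. Both were selected with puromycin at 5 µg/mL, released from it before collection, and lysed as frozen pellets with cycloheximide at 100 µg/mL. Each construct sits in a line of its own, so the construct and the history of the line cannot be told apart, and the labels do not say whether a line is 1 clone. The 3 Flag/HA groups are described as independent replicates. For the Parental and ZC3H7A/B-DD libraries no such statement is given, so a p-value there reflects sample spread that may be no more than technical.

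Cells answer a DNA break with kinases that sense it, ATM at broken ends and ATR at exposed single strands, which signal through CHEK1 and CHEK2 to hold the cell cycle. The break is then either rejoined directly by the Ku proteins, the kinase PRKDC and the ligase LIG4, or cut back and repaired from the sister chromatid by homologous recombination, the work of MRE11A, RAD50, BRCA1, BRCA2 and their partners. The Fanconi anaemia proteins handle crosslinks between strands, and mismatch and excision repair remove wrong or damaged bases. HEK293 cells carry adenoviral E1 genes, whose products bind p53 and RB1, and divide rapidly in culture.

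Many of these genes are built from codons that end in A or T, which bears on the codon question of the study. The share of such codons (AT3) was taken over the longest coding sequence of each gene, without start and stop codons, in GENCODE release 29 on GRCh38. The median AT3 of the 33 genes was 59.0%, against 41.0% for the 13371 genes with a coding sequence tested in the Flag/HA libraries. At or above 60% stood 16 of the 33 genes (48.5%) and 2325 of those 13371 (17.4%), and below 45% stood 8 genes (24.2%) and 56.1% of all. These limits were chosen for this description. Codons 2 to 51 of 4 genes are shown, 150 bases each, with capitals marking an A or T at the third base of a codon. BRCA2 has the highest AT3 of the 33 and ERCC1 the lowest. LIG4, the gene with the largest fall, and EXO1, a gene of high AT3 that rose, were picked after their values were seen.
BRCA2: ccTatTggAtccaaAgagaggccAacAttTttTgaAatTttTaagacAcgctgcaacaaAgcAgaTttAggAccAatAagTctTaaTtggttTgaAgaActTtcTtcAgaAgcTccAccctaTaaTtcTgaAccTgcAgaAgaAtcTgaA
LIG4: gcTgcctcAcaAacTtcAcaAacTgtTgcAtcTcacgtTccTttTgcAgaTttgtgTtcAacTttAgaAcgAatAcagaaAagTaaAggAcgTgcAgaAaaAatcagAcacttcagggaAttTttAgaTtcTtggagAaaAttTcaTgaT
EXO1: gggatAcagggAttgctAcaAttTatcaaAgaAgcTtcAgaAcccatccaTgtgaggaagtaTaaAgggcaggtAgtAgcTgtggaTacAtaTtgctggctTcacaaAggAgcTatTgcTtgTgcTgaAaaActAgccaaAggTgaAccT
ERCC1: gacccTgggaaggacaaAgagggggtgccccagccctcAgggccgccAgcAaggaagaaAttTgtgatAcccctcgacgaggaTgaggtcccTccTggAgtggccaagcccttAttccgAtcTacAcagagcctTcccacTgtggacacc
The BRCA2 stretch lies in 2 coding exons within chr13:32316464-32319162 on the plus strand, and 41 of its 50 codons end in A or T (AT3 of the whole gene 73.4%). The LIG4 stretch lies in 1 exon at chr13:108211116-108211265 on the minus strand, also with 41 of 50 (whole gene 69.8%). EXO1 has 34 of 50 in 1 exon at chr1:241850429-241850578 on the plus strand (whole gene 63.1%). ERCC1 has 18 of 50 in 2 exons within chr19:45421346-45423371 on the minus strand (whole gene 30.4%).

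Reads assigned to genes came to 22661812 to 29515572 per Flag/HA library, 32955833 to 39064072 per Parental library and 20777204 to 42680589 per ZC3H7A/B-DD library, and the 33 genes took 0.796% to 1.13% of them. The lowest count of any of these genes in any library was 239 reads, for PMS2. Footprints of ZC3H7A and ZC3H7B were higher in their own lines, at 38044 ± 562 against 6547 ± 52.6 and 27885 ± 927 against 2152 ± 71.8 normalized counts (mean ± SD, n = 3 throughout). Counts by gene name do not tell the tagged from the endogenous gene. Against the control, ZC3H7B was also higher in the ZC3H7A line (log2 change 0.39) and ZC3H7A lower in the ZC3H7B line (-0.46). In the libraries labelled ZC3H7A/B-DD neither gene was lower. ZC3H7A stood at 7116, 1890.3 and 5066 there and at 1885, 1819.9 and 2311 in Parental, and ZC3H7B at 3948, 2399 and 2969 and 2479, 2321 and 2609, so footprints do not show the depletion and every direction drawn from those libraries rests on their label. Parental replicate 3 stood apart from the other Parental libraries. Across all 17092 genes tested its median absolute log2 distance from them was 0.22, against 0.11 between replicates 1 and 2. The 8 HEK293 or epithelial markers were present in all groups, summed to 29359 to 54173 normalized counts, while 6 blood markers summed to 165 to 799 and 6 fibroblast markers to 101 to 379.6. No marker was at 0 in all libraries of a group. Single markers made up much of these sums. The highest HEK293 or epithelial marker reached 18486 in the control and 43627 in ZC3H7A/B-DD, and the highest blood marker 786 in the control. The median coefficient of variation of the 33 genes over replicates was 2.16% in the control, 3.80% with ZC3H7A, 4.28% with ZC3H7B, 8.05% in Parental and 7.72% in ZC3H7A/B-DD.

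With ZC3H7A, 18 of the 33 repair genes fell (54.5%) and 6 rose (18.2%) against the Flag/HA control, by limma on log2(value + 1) at a Benjamini-Hochberg adjusted p under 0.05. Over all 15599 genes tested, 57.5% were called, 28.2% lower and 29.2% higher. The 3 libraries lay wholly below the control for 21 of the 33 genes and wholly above for 7, and in either direction for 63.9% of all genes (31.5% below, 32.4% above). The median log2 change was -0.12 for the repair genes and 0.022 for all genes, with single repair genes from -0.89 to 0.41, and none reached a 2-fold change, where 8.67% of all genes were called at 2-fold. With ZC3H7B, 11 fell (33.3%) and 8 rose (24.2%), against 25.4% and 28.9% of all genes (54.3% called, 7.65% at 2-fold), with a median of -0.024 against 0.036 and a range of -0.59 to 0.39. That median lay at 0.0020 without control replicate 1, at 0.0045 without ZC3H7B replicate 3 and at -0.036 without control replicate 2. Libraries lay wholly below the control for 13 genes and wholly above for 10, and in either direction for 61.1% of all genes (29.0% below, 32.2% above). Among the 13371 tested genes with a coding sequence, 31.4% were lower and 31.2% higher with ZC3H7A. With ZC3H7B these shares were 28.5% and 30.4%. The share lower was closer to the 33.3% of the 33 genes than the share over all genes. The share higher was farther from their 24.2%. Both comparisons use the same 3 control libraries, so their values are set side by side and their likeness is not counted. Under quantile scaling the split was 16 lower and 9 higher with ZC3H7A and 9 lower and 12 higher with ZC3H7B (median 0.058), and under TMM scaling 14 lower and 8 higher with ZC3H7B. The balance of direction for ZC3H7B therefore turned with the scaling. In such bulk libraries fewer cells of a kind and fewer footprints per cell cannot be told apart, nor can mRNA level and ribosomes per mRNA. A difference on the log2(value + 1) scale understates the change of genes with low values, which matters little at the counts of these genes.

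**Figure D1:**
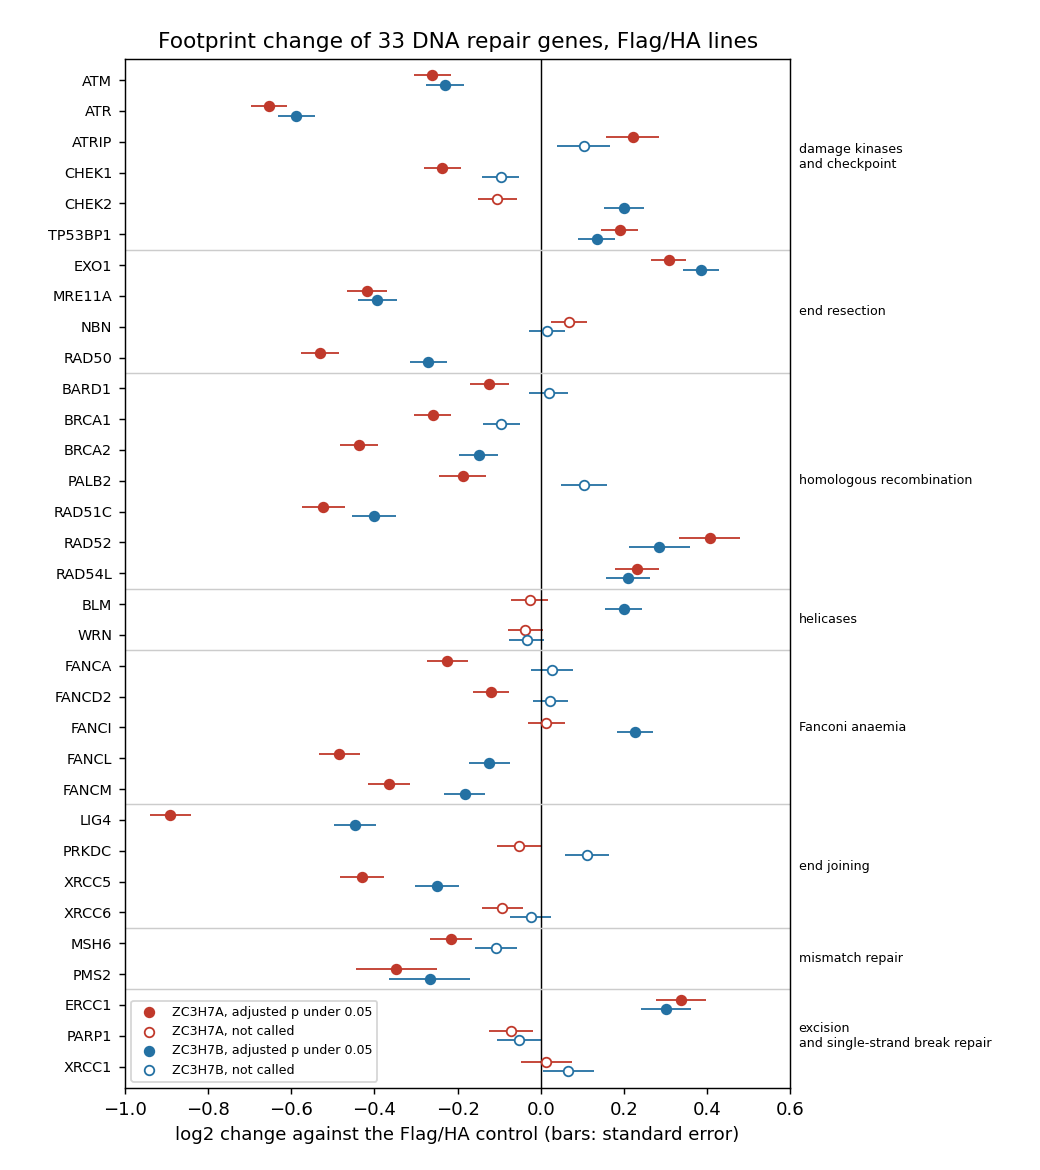
Each row is one of the 33 genes, in groups by role, and the horizontal axis is its log2 change against the Flag/HA control, with bars for the standard error of the limma fit. Filled points passed the test: 18 lower and 6 higher with ZC3H7A, 11 lower and 8 higher with ZC3H7B, with LIG4 farthest to the left at -0.89.

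LIG4, the ligase that seals ends in direct end joining, had the largest fall with ZC3H7A. Its normalized counts (gene at chr13:108207439-108218368) were 2636, 2574 and 2538 in the control, 1421, 1428 and 1332 with ZC3H7A and 1872, 1909 and 1904 with ZC3H7B. The 3 groups did not overlap, the ZC3H7A libraries were lowest and the ZC3H7B libraries lay between. The log2 changes were -0.89 (SE 0.050, limma adjusted p = 5.57e-13) and -0.45 (SE 0.050, limma adjusted p = 5.79e-08). XRCC5 and XRCC6 encode the Ku heterodimer that clasps broken ends. XRCC5 fell from 41034 ± 709 to 30479.6 ± 874 with ZC3H7A (-0.43) and to 34589 ± 2821 with ZC3H7B (-0.25), while XRCC6, at 35281 ± 1112 in the control, did not pass in either (-0.093 and -0.024). PRKDC, the kinase that Ku recruits, did not pass either, at 97358 ± 2074, 93812 ± 819 and 105192 ± 5695 in the 3 groups. End joining had 2 of 4 genes lower and none higher in each comparison. The shares of all genes were 28.2% lower and 29.2% higher with ZC3H7A, and 25.4% and 28.9% with ZC3H7B. Whether counts among 4 genes differ from these shares was not tested.

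Among the kinases and checkpoint genes, ATR fell most. ATR (chr3:142449235-142578826) had 6769.9, 6811 and 7045 in the control, 4301, 4581 and 4235 with ZC3H7A and 4470.3, 4614 and 4635 with ZC3H7B. Every control library lay above every library of both overexpressing lines, and those lines overlapped each other. The fall was -0.65 with ZC3H7A (SE 0.044, limma adjusted p = 1.53e-11) and -0.59 with ZC3H7B (SE 0.044, limma adjusted p = 9.33e-11), the largest fall of the 33 genes for ZC3H7B. Its partner ATRIP, which brings the kinase to single-stranded DNA, rose with ZC3H7A from 756 ± 32.5 to 881 ± 14.8 (0.22, limma adjusted p = 0.00466) and stood at 812 ± 19 with ZC3H7B (0.10, limma adjusted p = 0.176, not called). ATM, the kinase for broken ends, fell from 10631 ± 108 to 8876 ± 337 and 9069.8 ± 445 (-0.26 and -0.23). CHEK1, the effector of ATR, fell with ZC3H7A to 3636 ± 32.3 from 4286 ± 104 (-0.24) and missed the threshold with ZC3H7B (-0.096, limma adjusted p = 0.0749). CHEK2, the effector of ATM, rose with ZC3H7B from 2468 ± 77.3 to 2834 ± 28.8 (0.20) and was not called with ZC3H7A (2297 ± 87.5, -0.10). TP53BP1, which shields broken ends from resection, rose to 8075 ± 460.2 with ZC3H7A (0.19) and to 7765 ± 191 with ZC3H7B (0.13) from 7074 ± 51.4. The ZC3H7B call of TP53BP1 was lost without control replicate 2 or ZC3H7B replicate 1 or 2 (limma adjusted p = 0.0501 to 0.0534).

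Of the 4 genes that cut back broken ends, 2 fell and 1 rose in each comparison. Among all genes 28.2% fell and 29.2% rose with ZC3H7A, and 25.4% and 28.9% with ZC3H7B. These 4 genes are too few to set their counts apart from such shares, and no test was run. RAD50, the ATPase of the MRE11A-RAD50-NBN complex (chr5:132556019-132646344), had 15507, 14586 and 15216 in the control, 10338, 10722 and 10299 with ZC3H7A and 12599, 13073 and 11919 with ZC3H7B. The ranges of the 3 groups did not meet. Its changes were -0.53 (SE 0.045, limma adjusted p = 6.09e-10) and -0.27 (SE 0.045, limma adjusted p = 1.85e-05). As 96.7% of the RAD50 coding bases also lie in exons of the readthrough gene AC116366.3, reads from the pair cannot be told apart. The nuclease MRE11A fell from 5722 ± 86.6 to 4283 ± 19.1 and 4365 ± 291 (-0.42 and -0.39), whereas NBN, which ties the complex to ATM, stood at 4473 ± 107 and 4314 ± 119.7 against 4266 ± 45.5 and passed in neither. EXO1, an exonuclease that extends resection and also serves mismatch repair, rose. EXO1 (chr1:241847967-241895148) had 5664, 5551 and 5617 in the control, 6992, 7036 and 6799 with ZC3H7A and 7464, 7519.8 and 7008 with ZC3H7B. All control libraries were below all others. The rise was 0.31 with ZC3H7A (SE 0.043, limma adjusted p = 1.46e-06) and 0.39 with ZC3H7B (SE 0.043, limma adjusted p = 5.54e-08).

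**Figure D2:**
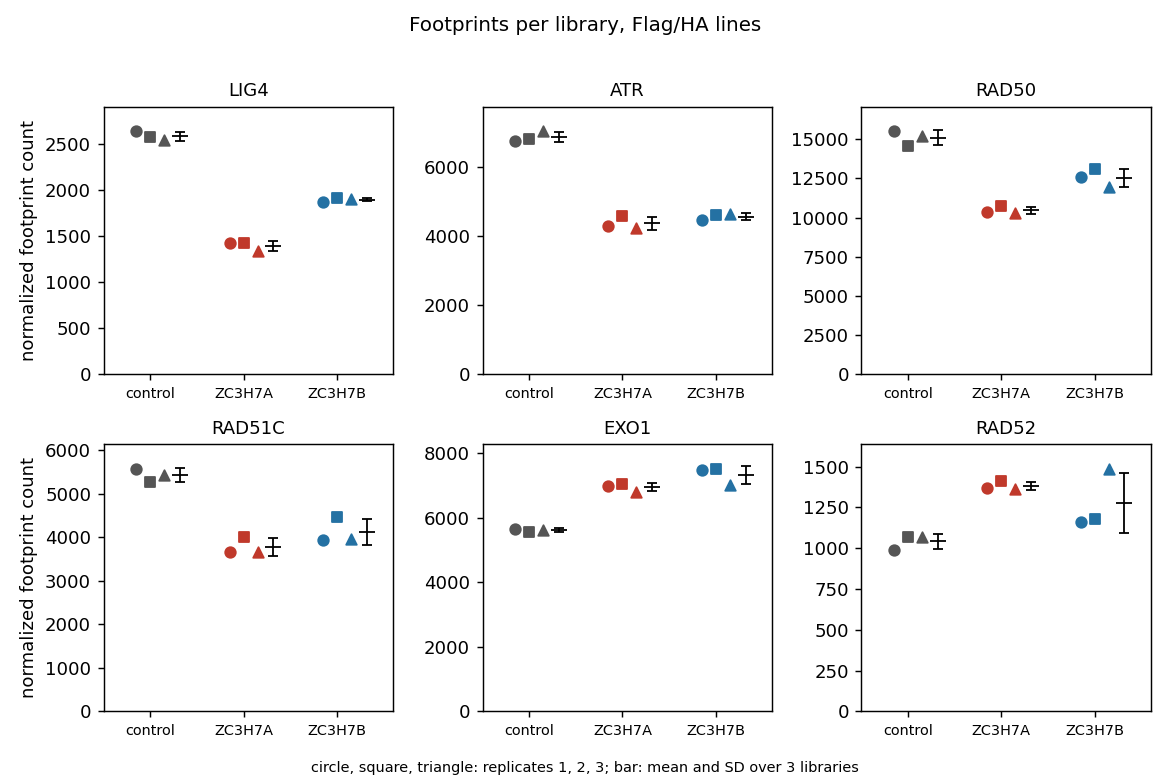
Each panel shows 1 gene and each point the normalized footprint count of 1 Flag/HA library, with mean and SD beside them. LIG4, ATR, RAD50 and RAD51C sit lower in the overexpressing lines than in all 3 control libraries, EXO1 and RAD52 sit higher, and only LIG4 and RAD50 also keep the overexpressing lines apart from each other at every replicate among the 4 that fell.

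Homologous recombination held called genes in both directions. RAD51C, a recombination factor (chr17:58692573-58735611), had 5569.8, 5259 and 5428 in the control, 3658, 4007 and 3657 with ZC3H7A and 3929, 4451 and 3948 with ZC3H7B. Control libraries were the highest, and the overexpressing lines overlapped. The fall was -0.52 (SE 0.052, limma adjusted p = 9.49e-09) and -0.40 (SE 0.052, limma adjusted p = 6.68e-07). RAD52, which anneals single strands (chr12:912077-990053), went the other way, with 991, 1066 and 1069.8 in the control, 1368, 1409.8 and 1366 with ZC3H7A and 1163, 1182 and 1487 with ZC3H7B. Replicate 3 was the highest of the ZC3H7B libraries, and all of them were above the control. The rise was 0.41 (SE 0.073, limma adjusted p = 4.76e-05) and 0.28 (SE 0.073, limma adjusted p = 0.00209). RAD54L, a translocase that helps strands pair, rose by 0.23 and 0.21 from 1903 ± 48.8. An opposite-strand gene, LRRC41, covers 27.3% of its coding bases, and strand use in counting is not given in the sources used here. BRCA2, a core recombination protein, fell from 3812 ± 114 to 2817 ± 119 (-0.44, limma adjusted p = 2.66e-08) with ZC3H7A and to 3437 ± 61.9 (-0.15, limma adjusted p = 0.00901) with ZC3H7B, a call lost without control replicate 1 (limma adjusted p = 0.0561). With ZC3H7A the ubiquitin ligase pair BRCA1 and BARD1 and their bridge to BRCA2, PALB2, fell too, by 0.26, 0.12 and 0.19 on the log2 scale. With ZC3H7B none of these 3 was called (-0.095, 0.019 and 0.10). The BARD1 call was lost without control replicate 1 or 3 or ZC3H7A replicate 1 or 2 (limma adjusted p = 0.0551 to 0.144). Of the 7 genes, 5 fell (71.4%) and 2 rose (28.6%) with ZC3H7A, against 28.2% and 29.2% of all genes. With ZC3H7B 2 fell and 2 rose (28.6% each), against 25.4% and 28.9%.

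Of the 5 Fanconi anaemia genes, 4 fell and none rose with ZC3H7A, where 28.2% of all genes fell and 29.2% rose. With ZC3H7B 2 fell and 1 rose, where 25.4% of all genes fell and 28.9% rose. Whether counts among 5 genes differ from these shares was not tested. FANCL, the ubiquitin ligase of the core complex, fell from 4276 ± 156 to 3055 ± 56.0 with ZC3H7A (-0.48, limma adjusted p = 1.29e-08) and to 3928 ± 246 with ZC3H7B (-0.12, limma adjusted p = 0.0377). The latter call was lost without control replicate 1 or 3 or ZC3H7B replicate 2 or 3 (limma adjusted p = 0.0656 to 0.179). FANCM, the translocase that finds stalled forks, fell by 0.36 and 0.18 on the log2 scale, and FANCA, another core protein, by 0.22 with ZC3H7A, where ZC3H7B gave 0.027 (not called). FANCD2 and FANCI are the pair that the core complex ubiquitinates. FANCD2 fell with ZC3H7A (-0.12), a call lost without control replicate 1 (limma adjusted p = 0.115) or ZC3H7A replicate 1 (limma adjusted p = 0.0548), and its value under quantile scaling was 0.015. FANCI rose with ZC3H7B from 17078 ± 154 to 20000.3 ± 999 (0.23) and stood at 17238 ± 246 with ZC3H7A. Of the RecQ helicases, BLM rose with ZC3H7B from 5170.4 ± 87.1 to 5935 ± 26 (0.20) and WRN was called in neither, as BLM was not with ZC3H7A (-0.026).

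Both mismatch repair genes fell with ZC3H7A and 1 with ZC3H7B. Of 3 genes of excision and single-strand break repair 1 rose in each comparison (33.3%). Over all genes, 28.2% fell and 29.2% rose with ZC3H7A, and 25.4% and 28.9% with ZC3H7B. MSH6, which recognises mismatched bases, fell with ZC3H7A from 19847 ± 726 to 17091 ± 551 (-0.22, limma adjusted p = 0.000769) and stood at 18453 ± 1293 with ZC3H7B (-0.11, limma adjusted p = 0.0763). PMS2, an endonuclease of mismatch repair, fell by 0.35 and 0.27 on the log2 scale from 690.0 ± 53.9, and its ZC3H7B call was lost without control replicate 1 (limma adjusted p = 0.123) or ZC3H7B replicate 3 (limma adjusted p = 0.211). Its near copy PMS2CL held 120.4 to 173 normalized counts on average per group, so reads of PMS2 may be split between them. In the control, ZC3H7A and ZC3H7B groups PMS2CL averaged 156, 172 and 173. PMS2P3 averaged 80.4, 102 and 88.7, PMS2P4 78.1, 78.9 and 92.2, and PMS2P5 34.4, 52.7 and 58.1. PMS2P1 (22.9, 20.7 and 22.7) and PMS2P2 (2.42, 1.35 and 2.42) were not higher in both lines. The part of such copies in the fall of PMS2 was not tested. ERCC1, part of the nuclease that cuts out bulky lesions (chr19:45407333-45478828), had 909, 898 and 875 in the control, 1204, 1108 and 1081 with ZC3H7A and 1121, 1108 and 1075 with ZC3H7B. Control libraries were the lowest and the other lines overlapped. The rise was 0.34 (SE 0.060, limma adjusted p = 4.09e-05) and 0.30 (SE 0.060, limma adjusted p = 0.000177). XRCC1, the scaffold of single-strand break repair, and PARP1, the sensor that marks such breaks with poly(ADP-ribose), passed in neither comparison. A copy of PARP1, PARP1P1, held 267 to 476 normalized counts on average per group, and neighbouring genes cover 11.8% of the coding bases of XRCC1, 13.7% of FANCA and 10.6% of TP53BP1.

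Set directly against each other, the overexpressing lines differed in 16 of the 33 genes (48.5%), all 16 lower with ZC3H7A than with ZC3H7B and none higher, where 36.6% of all genes tested were called, 18.2% lower and 18.4% higher. The libraries did not overlap for 15 genes lower and 1 higher (ATRIP, not called), and for 43.7% of all genes, 21.9% lower and 21.9% higher. The median difference was -0.12, against -0.0075 for all genes, and the range -0.44 to 0.12, so these are differences of small size. No gene of the 33 reached a 2-fold difference (3.19% of all genes did). All 5 Fanconi anaemia genes were lower with ZC3H7A, as were 4 of 7 recombination genes, 3 of 4 end joining genes and 2 of 6 kinase and checkpoint genes, and neither mismatch nor excision repair held a called gene. LIG4 was lowest (-0.44, SE 0.050, limma adjusted p = 1.22e-07) with the libraries given above. FANCL (chr2:58159243-58241372) was next, with 2990.0, 3091 and 3083 with ZC3H7A and 4165, 3946 and 3673 with ZC3H7B. These ranges did not meet, and the difference was -0.36 (SE 0.049, limma adjusted p = 2.57e-06). CHEK2, PALB2 and BRCA2 followed, at -0.30, -0.29 and -0.29 (log2, ZC3H7A minus ZC3H7B). Calls lost without 1 library were those of BARD1 (ZC3H7A replicate 1 or ZC3H7B replicate 1 or 2, limma adjusted p = 0.0555 to 0.0728), PRKDC (ZC3H7A replicate 1 or 3 or ZC3H7B replicate 1 or 2, 0.0501 to 0.0847), CHEK1 (ZC3H7B replicate 1 or 2, 0.0665 and 0.0773) and XRCC5 (the same libraries, 0.0507 and 0.072). Without ZC3H7B replicate 3 the count was 20 lower and 1 higher. Without ZC3H7B replicate 2 it was 12 lower, with the median at -0.077, and a fit of all 15 libraries gave 8 lower. TMM scaling gave 16 lower and none higher, and quantile scaling 17 and none. Of 15 S phase genes, 9 were lower with ZC3H7A than with ZC3H7B and none higher (median -0.21). Under TMM scaling 8 were lower and 1 higher, and under quantile scaling 12 and none. Of 14 p53 targets 7 were lower and 2 higher (median -0.20). Of 12 mitotic genes 3 were lower and 1 higher (median -0.045). The part of these lists in the difference of the repair genes was not tested.

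**Figure D3:**
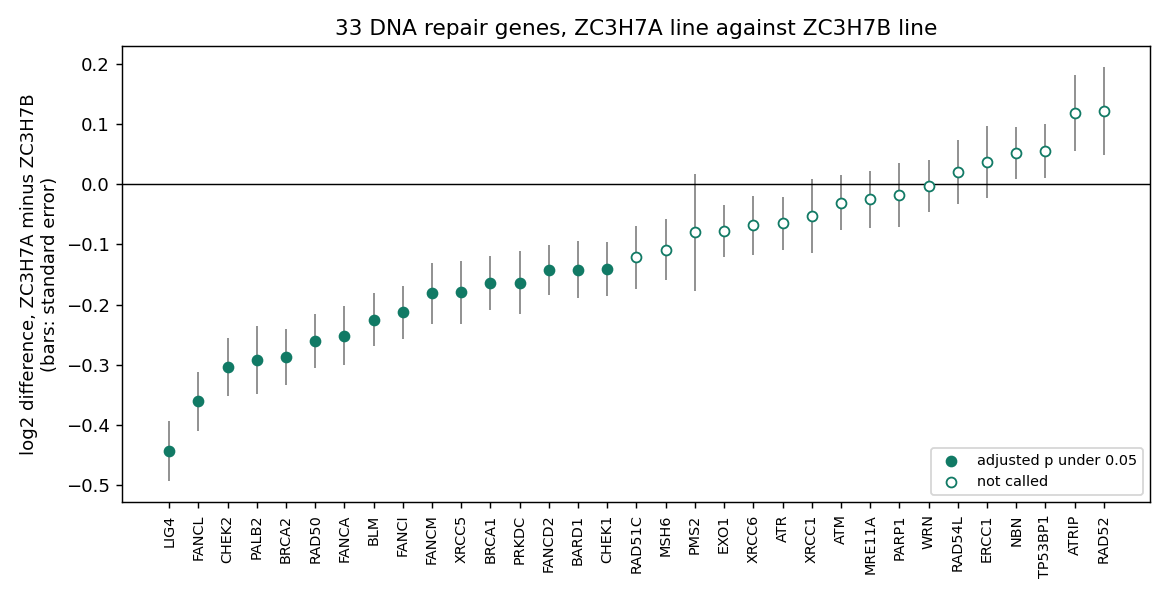
Genes stand in order of the log2 difference between the ZC3H7A and ZC3H7B lines, with bars for the standard error. The 16 filled points, all below 0 and none beyond -0.44, passed the test.

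AT3 went with these changes across the 33 genes. Spearman's rho between AT3 and the log2 change was -0.54 for ZC3H7A and -0.51 for ZC3H7B (n = 33 genes each), against -0.27 and -0.29 over the 13371 genes. Genes are not independent replicates, they share libraries and depth, and AT3 is a measure of base composition, so rho is given as a description. Of the 16 genes at or above 60%, 12 fell and 1 rose with ZC3H7A (median -0.31), where 51.4% of all genes in that range fell (median -0.16). EXO1 was the 1 that rose. With ZC3H7B, 9 of the 16 fell (56.25%) and 2, EXO1 and BLM, rose (12.5%), with a median of -0.14. Of all genes in that range 50.1% fell and 17.6% rose (median -0.16), so the repair genes lay near them. Of the 8 genes below 45%, 4 rose and 1, FANCA, fell with ZC3H7A (median 0.12), where 37.6% of all genes in that range rose and 21.9% fell. With ZC3H7B 3 of the 8 rose (37.5%) and none fell (median 0.085), against 37.3% of all such genes higher and 17.6% lower, so the share that rose was that of all genes. For ZC3H7A against ZC3H7B rho was -0.37 over the 33 genes and 0.0069 over all genes, and 9 of the 16 genes of high AT3 were lower, against 23.4% of all such genes. In the libraries labelled ZC3H7A/B-DD against Parental rho was -0.056 over the 33 genes and 0.10 over 13546 genes.

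**Figure D4:**
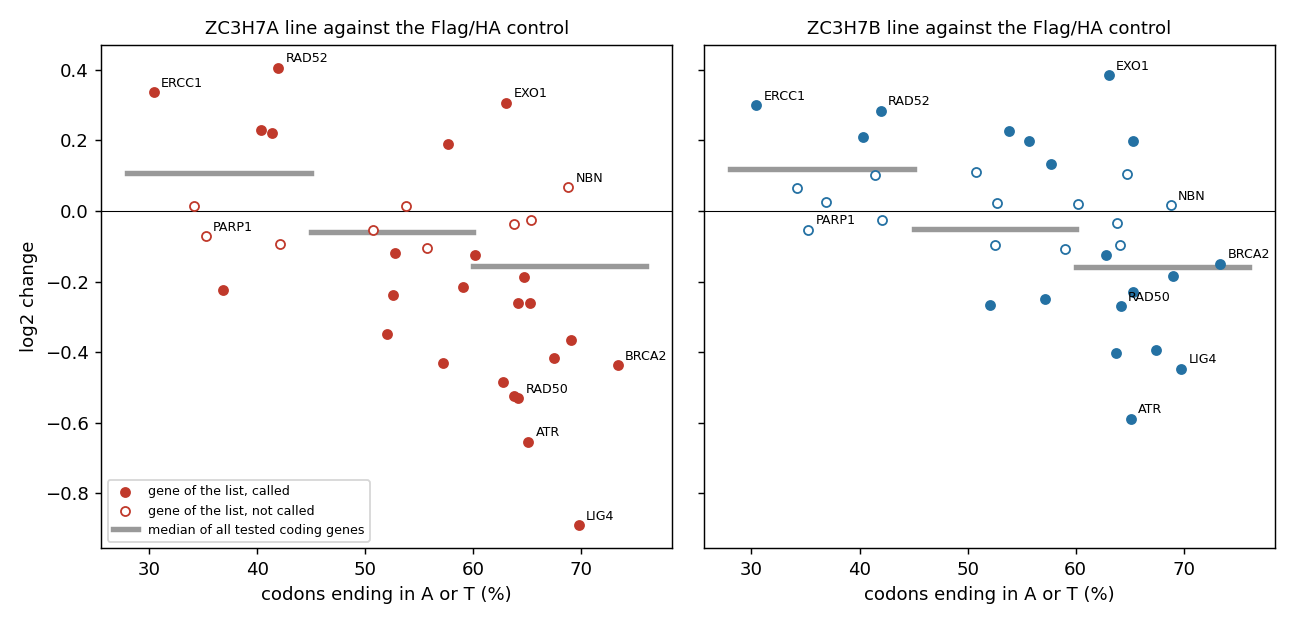
Each point is one of the 33 genes, with AT3 in percent on the horizontal axis and its log2 change on the vertical axis, in a panel each for ZC3H7A and ZC3H7B against the control; filled points passed the test and grey bars are medians of all coding genes tested below 45%, from 45% to 60% and at or above 60% AT3. Points run down to the right in both panels (rho -0.54 and -0.51), with EXO1 above the other genes of high AT3.

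In the libraries labelled ZC3H7A/B-DD, 10 of the 33 genes were higher than in Parental (30.3%) and none was lower, where 24.5% of the 17092 genes tested were called, 11.0% higher and 13.5% lower, by the limma test. The median log2 change was 0.15, against 0.024 for all genes. The libraries did not overlap for 12 genes higher and 3 lower, and for 40.8% of all genes (19.6% higher, 21.2% lower). At a 2-fold change and called stood 1 of the 33 genes, MSH6, and 4.94% of all genes. Genes of recombination (BRCA1, BRCA2 and RAD51C of 7) and of the Fanconi pathway (FANCD2, FANCI and FANCL of 5) gave 6 of the 10, with RAD50, BLM, MSH6 and XRCC1 the others. FANCL rose from 2405 ± 56.3 to 3417 ± 122 (0.51, SE 0.077, limma adjusted p = 0.00212) and RAD51C from 3592 ± 262 to 4786 ± 181 (0.42, SE 0.087, limma adjusted p = 0.00925). FANCD2 had 3531, 3364 and 4509.7 in Parental and 6435, 5951 and 5573 in the libraries labelled ZC3H7A/B-DD. All 3 of the latter lay above, and Parental replicate 3 was the highest of its group (0.66, SE 0.12, limma adjusted p = 0.00488). BLM had 2151, 2433 and 3165 and 4309.9, 3836 and 3639 (0.62, SE 0.14, limma adjusted p = 0.0127). XRCC1 had 1696, 1712 and 3304 and 3348, 3938 and 3558 (0.76, SE 0.23, limma adjusted p = 0.0387). For both, the groups did not overlap, and for XRCC1 Parental replicate 3 nearly reached the lowest ZC3H7A/B-DD library.

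These calls depended on single libraries. Leaving out 1 library gave 4 higher genes without Parental replicate 1, 3 without Parental replicate 2, 15 higher and 2 lower (median 0.29) without Parental replicate 3, and 4, 4 and 5 without ZC3H7A/B-DD replicate 1, 2 or 3. FANCD2, FANCL and RAD51C passed in all 6 of these fits, and BLM in 5, missing without Parental replicate 2 (limma adjusted p = 0.0562). BRCA1, FANCI, MSH6, RAD50 and XRCC1 passed in 1 of 6, the fit without Parental replicate 3, and BRCA2 in 2, with limma adjusted p of up to 0.171 in the other fits. Parental replicate 3 was nearer to the ZC3H7A/B-DD mean than to the other Parental libraries for 19 of the 33 genes (57.6%), against 43.2% of all genes tested. MSH6, PARP1, XRCC5 and PRKDC were picked for display after their values were seen. MSH6 had 5957, 6562 and 16424 in Parental and 18614, 18276 and 15489 in ZC3H7A/B-DD. Its Parental replicate 3 was 2.62 times the mean of replicates 1 and 2 and lay within the ZC3H7A/B-DD range, with a log2 change of 1.01 (limma adjusted p = 0.0492) with that library and 1.48 without it. PARP1 had 17871, 19344 and 49308 and 50974, 52169 and 43386. It was not called with that library (0.92, limma adjusted p = 0.0727) and was called without it (1.39, limma adjusted p = 3.32e-05). XRCC5 moved likewise, from 0.42 (limma adjusted p = 0.0839) to 0.59 (limma adjusted p = 0.00114) without it. PRKDC was the lowest of the 33 genes, with 108924, 103019 and 96627 in Parental and 79804, 79375 and 74980.0 in ZC3H7A/B-DD. Its groups did not overlap, yet it missed the threshold (-0.40, limma adjusted p = 0.0559) and passed without Parental replicate 3 (-0.44, limma adjusted p = 0.00739). Without Parental replicate 3 and ZC3H7A/B-DD replicate 2 together, a fit chosen after seeing the data, 16 genes were higher and 1 lower. By edgeR's quasi-likelihood test on recovered reads 5 genes were higher and 1, PRKDC, lower. In the main fit 11.0% of all genes were higher in ZC3H7A/B-DD and 13.5% lower. Of 15 S phase genes 7 were higher and none lower (median 0.46), and of 12 mitotic genes 3 and none (median 0.28). Without Parental replicate 3 these were 12 and 9 higher, and 1 mitotic gene was higher without Parental replicate 1 or 2 or ZC3H7A/B-DD replicate 1. Their part in the rise of the repair genes was not tested.

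**Figure D5:**
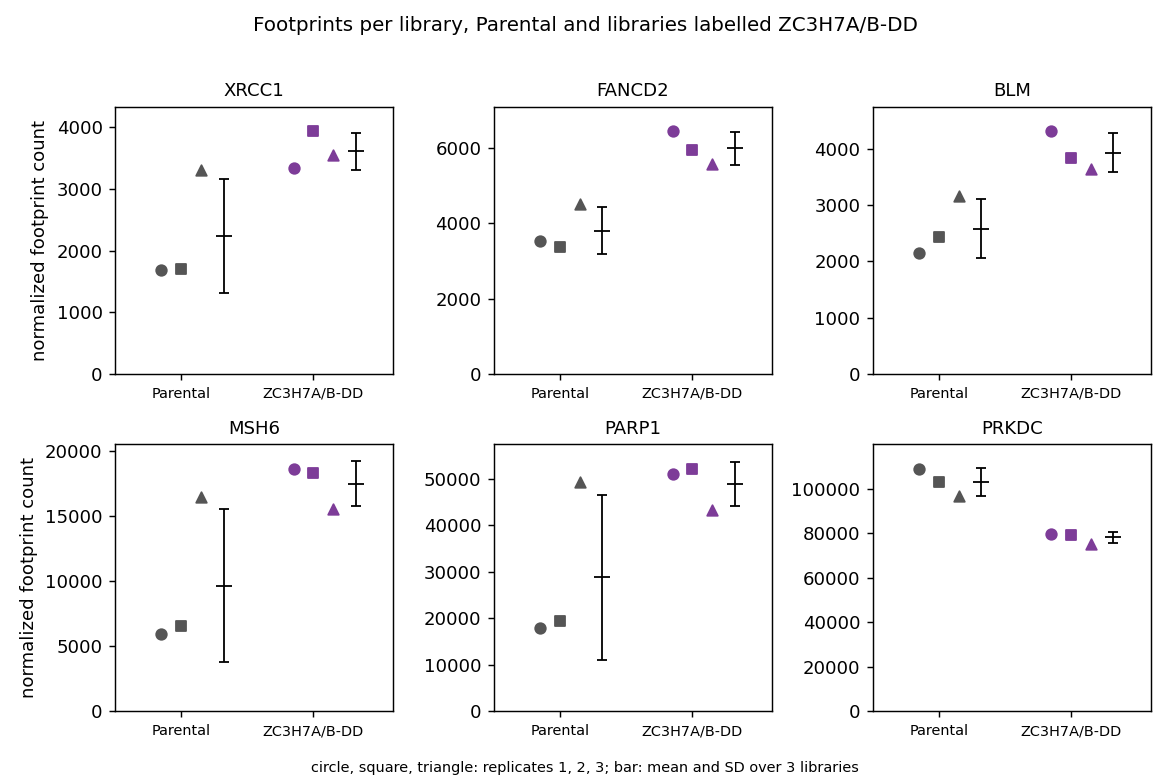
Each panel shows 1 gene and each point the normalized footprint count of 1 library of Parental or ZC3H7A/B-DD, with mean and SD beside them. For MSH6 and PARP1 the Parental replicate 3 triangle sits among the ZC3H7A/B-DD libraries, for FANCD2 all ZC3H7A/B-DD libraries lie above Parental, and for PRKDC all lie below.

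Levels of the genes, compared per kilobase of coding sequence, spanned a wide range. In the Flag/HA control the Ku genes XRCC6 and XRCC5 stood highest at 19311 and 18686 normalized counts per coding kilobase, with PARP1 at 18147 and PRKDC at 7862. Lowest were PMS2 at 267, ATRIP at 319, FANCM at 346 and PALB2 at 350.5. In Parental the order at the top was XRCC5, XRCC6, PARP1 and PRKDC, at 12751, 11935, 9481 and 8306, where the spread of PARP1 over the 3 libraries (coefficient of variation 61.5%) takes in the other 3 within 1 SD. The sets differ in lysis, library kit and laboratory, so levels were not compared between them.

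Other genes of the same pathways, 108 of a list of 110 found in the table, gave further calls. With ZC3H7A, 45 of 107 tested fell (42.1%, against 28.2% of all genes) and 26 rose (24.3%, against 29.2%), with a median of -0.053. With ZC3H7B, 28 fell (26.2%) and 35 rose (32.7%), near the 25.4% and 28.9% of all genes, and the medians were 0.029 and 0.036. That split was 26 and 41 under quantile scaling and 32 and 31 under TMM. ZC3H7A against ZC3H7B gave 37 lower (34.6%) and 10 higher (9.35%), against 18.2% and 18.4% of all genes. The libraries labelled ZC3H7A/B-DD had 11 lower (10.2%) and 25 higher (23.1%) of 108, against 13.5% and 11.0%. The counts were 5 lower and 12 higher without Parental replicate 2, and lower genes numbered 7 without Parental replicate 1 and 6 without ZC3H7A/B-DD replicate 3. Per comparison the called gene with the smallest limma p each way is named, which need not have the largest change. RECQL4, a RecQ helicase, rose most with ZC3H7A, to 1337 ± 60.1 from 516 ± 47.9 (1.38, limma adjusted p = 3.29e-13), and TDG, a thymine DNA glycosylase, fell most, to 2208 ± 59.2 from 3848 ± 88.6 (-0.80, limma adjusted p = 4.33e-12). With ZC3H7B the end joining nuclease DCLRE1C (Artemis) rose to 1118 ± 42.2 from 683 ± 9.67 (0.71) and the fork remodeller HLTF fell to 6884 ± 299 from 10265 ± 344 (-0.58). These were not the extremes, as the listed genes ranged from -0.59 to 1.07 with ZC3H7B. UNG, the uracil glycosylase, was lower with ZC3H7A than with ZC3H7B, at 4541 ± 73.3 against 7117 ± 94.3 (-0.65, limma adjusted p = 1.05e-11). RECQL4 was higher with ZC3H7A than with ZC3H7B, at 1337 ± 60.1 against 811 ± 54.6 (0.72, limma adjusted p = 3.12e-08). In the libraries labelled ZC3H7A/B-DD the lesion sensor DDB2 was higher, at 1691 ± 144 against 859 ± 67.9 (0.98, limma adjusted p = 0.00028), and the uracil glycosylase SMUG1 lower, at 367 ± 14.0 against 912 ± 62.4 (-1.31, limma adjusted p = 4.76e-05).

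Targets that p53 switches on after damage and genes of the cell cycle were followed in the same libraries. Over all genes tested, 28.2% fell and 29.2% rose with ZC3H7A, and 25.4% and 28.9% with ZC3H7B. Of 14 p53 targets, 11 fell (78.6%) and 1 rose (7.14%) with ZC3H7A (median -0.67). With ZC3H7B 10 fell (71.4%) and 3 rose (21.4%, median -0.56). CDKN1A, the cell cycle inhibitor p21, fell by 1.68 and 1.31 on the log2 scale in these lines and was higher in the libraries labelled ZC3H7A/B-DD (1.54, limma adjusted p = 9.92e-05). The list had 3 higher (21.4%) and 2 lower (14.3%) there, against 11.0% and 13.5% of all genes. With 1 library left out, 0 to 4 were lower. MDM2, the ubiquitin ligase of p53, fell by 0.77 with ZC3H7A and 0.57 with ZC3H7B. Of 15 S phase genes, 9 fell and 2 rose with ZC3H7A (median -0.16; 6 and 3 under quantile scaling) and 3 fell and 5 rose with ZC3H7B (median 0.066). The 12 mitotic genes gave 3 lower and 4 higher with ZC3H7A and 1 lower and 4 higher with ZC3H7B. Whether these lists account for any of the changes in the repair genes was not tested.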

How the data were processed

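Footprints of 15 HEK293 libraries were analysed from 1 deposited table. The authors gave normalized counts per gene name, a signal made with cutadapt, Bowtie, STAR, HTSeq and DESeq2 per the submitters' processing notes, which also name hg38 and hg19. No source used here gives the versions, the role of each build, the footprint lengths or the strand setting. Within a library all values were integer multiples of the value of 1 read (100% of values, tolerance 0.001 reads), so reads were recovered from the deposited signal. The main test was limma 3.58.1 (R 4.3.3; lmFit, then eBayes with trend). It ran on log2(value + 1) for genes that reached 10 in 3 or more libraries of a fit, with Benjamini-Hochberg adjustment over every gene tested and calls under 0.05. A single fit held the 9 Flag/HA libraries and a separate one the other 6. This step was checked on simulated data. Values per library are printed for the 3 called genes farthest each way (2 between the overexpressing lines) whose libraries did not overlap, and for genes said to be picked later. Members, lists and rules were chosen with earlier results of these data known. Positions and coding sequences come from GENCODE release 29 on GRCh38, matched by symbol (33 of 33, MRE11A as MRE11). As alternatives, pseudocount, filter, scaling, sample weights, a joint fit of all libraries, a replicate block and single left-out libraries were tried. On recovered reads edgeR 4.0.16 and DESeq2 1.42.0 called 9059 and 8528 genes with ZC3H7A, 8494 and 7934 with ZC3H7B, 5856 and 5360 between those lines, and 4132 and 4193 for ZC3H7A/B-DD.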

Additional observations from a re-analysis of the deposited data

How the results depend on the processing

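Over all fits with 1 library left out, the threshold was lost 6 times for a called gene with ZC3H7A, 10 times with ZC3H7B, 11 times between these lines and 30 times for ZC3H7A/B-DD. With ZC3H7A against the control, leaving out 1 library gave 16 to 18 genes lower and 6 higher, and with ZC3H7B 8 to 12 lower and 7 to 9 higher. Among genes that were called or whose libraries did not overlap, quantile scaling turned 5 values against the control: FANCD2 to 0.015 and PRKDC to 0.099 with ZC3H7A, and BRCA1 to 0.020, WRN to 0.087 and CHEK1 to 0.011 with ZC3H7B. The fit of all 15 libraries gave 14 lower and 5 higher genes with ZC3H7A, against 18 and 6 in the main fit. It gave 7 lower and 5 higher with ZC3H7B, and 8 lower for ZC3H7A against ZC3H7B. For the latter, precision weights gave 1 higher gene, and leaving out 1 library gave 0 to 1 higher and 12 to 20 lower. The libraries labelled ZC3H7A/B-DD changed most. Lower genes numbered 1 without a filter, with a filter at 50, with edgeR and with DESeq2, and 3 with precision weights and with all 15 libraries in 1 fit. Higher genes numbered 18 with precision weights (9003 of all genes called) and 5 with edgeR. Leaving out 1 library gave 3 to 15 higher and 0 to 2 lower genes, and 1895 to 5560 called among all genes, against 4182. Without Parental replicate 3 and ZC3H7A/B-DD replicate 2 together, 16 were higher and 1 lower, of 5936 genes called in all. The cause of these shifts was not tested.

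Replicate numbers did not pair the libraries: same-numbered deviations correlated at -0.13 to 0.092. With the replicate block, 18 genes were lower and 6 higher with ZC3H7A, 12 and 9 with ZC3H7B, and 17 and 0 between these lines. For ZC3H7A/B-DD 5 were higher and none lower, and all genes called numbered 2992. The least covered gene, PMS2, with 239 reads in its lowest library, also had the largest standard error of the 33 genes in the Flag/HA fit (0.097).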
